A study of Macaca mulatta with 12 samples.

Results

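TRBV29-1 is 1 of the variable (V) segments from which the T cell receptor (TCR) β chain is assembled in the rhesus macaque. Its clonotypes were examined in TRB libraries made from blood mononuclear cell RNA. A clonotype was a CDR3 nucleotide sequence with its count, and members were selected on the first V gene hit in the clone table, which had to be TRBV29-1. This rule found 5327 of the 218326 clonotype entries in 12 libraries, with 5025 distinct nucleotide sequences. Of these, 5325 lay in the 8 libraries taken after infusion and 2 in the 4 baseline libraries. Every post-infusion member had TRBV29-1 as its only V gene among the hits, whereas 8.56% to 14.1% of the clonotypes of other V genes had hits to more than 1.

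The 8 libraries taken after infusion are labelled with 3 animals, named Amazo, Nebula and Rocket. Each name has a library of day -5 and one of day -4, and there is 1 further library of Nebula (day 0) and 1 of Amazo (day +3). Per the study's methods, the 3 animals were nondiabetic, nontransplanted male monkeys of Indian origin. They received leukocytes of donors matched for one DRB allele and disparate for MHC class I, fixed with ECDI so that they undergo apoptosis (apoptotic donor leukocytes, ADLs). All were also given anti-CD40 antibody 2C10R4, rapamycin, tocilizumab against the IL-6 receptor and the soluble TNF receptor etanercept. The series text places the infusions on days -7 and 1, so the libraries of days -5, -4 and 0 follow the first infusion and that of day +3 the second, which a legend of the study places on day 0. The baseline titles give codes in place of animal names and do not tell which animals were sampled, and no untreated or immunosuppressed-only control was analysed here. Effects of ADLs and of the drugs cannot be told apart. Ages of the animals were not used here.

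A TCR β chain gene is made by joining a V, a D and a J segment in a developing T cell. At each joint the segment ends are trimmed and bases without template are added, so the CDR3 begins with bases of V, ends with bases of J and carries unique bases between them. T cells of 1 clone share this sequence, and the CDR3 loop is the part of the receptor that lies over the peptide held by an MHC molecule. TRBD1 lies before the TRBJ1 segments, and TRBD2 lies between the TRBJ1 and the TRBJ2 segments.

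The libraries did not fall into groups by animal name. The Morisita-Horn index, which runs from 0 for no shared clonotype to 1 for identical repertoires, was computed over the clonotypes of all other V genes. It was 0.765 to 0.984 in 9 pairs of libraries and at most 0.0127 in the other 19 pairs. The 9 pairs formed set A (Amazo day -5, Amazo day +3, Rocket day -5 and Rocket day -4) and set B (the 3 Nebula libraries), and the Amazo day -4 library stood alone as set C. The library labelled Amazo day -4 thus did not share a repertoire with the other Amazo libraries, which in turn shared theirs with both libraries labelled Rocket. The comparison of day -5 with day -4 is therefore given with and without the Amazo libraries. Tests over the 3 names count Amazo and Rocket as separate animals although their libraries share clones. Total counts were 42695 (Nebula day -4) to 556954 (Rocket day -5) after infusion and 63 to 74 at baseline.

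The sequences below are those the results turn on, namely the largest TRBV29-1 clone, the 5 largest other clonotypes of set A, and clonotypes that lead or recur in sets B and C. Each is the CDR3 from 5′ to 3′ as deposited, with bases aligned to V or J in lower case and the bases between them, which include any D bases, in capitals. The first line is the V end of clonotypes whose V segment was not trimmed.
V end: tgcagcgttgaag
Largest clone, TRBJ2-1: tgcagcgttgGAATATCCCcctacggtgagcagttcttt
Set A, TRBJ1-2, first clone: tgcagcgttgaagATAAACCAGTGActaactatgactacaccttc
Set A, TRBJ2-6: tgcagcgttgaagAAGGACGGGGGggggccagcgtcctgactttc
Set A, TRBJ2-1: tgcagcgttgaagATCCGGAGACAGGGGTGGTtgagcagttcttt
Set A, TRBJ1-1: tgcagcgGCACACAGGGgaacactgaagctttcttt
Set A, TRBJ1-2, second clone: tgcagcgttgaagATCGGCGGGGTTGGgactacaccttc
Set B, TRBJ1-4, first clone: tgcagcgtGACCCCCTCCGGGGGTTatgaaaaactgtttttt
Set B, TRBJ1-4, second clone: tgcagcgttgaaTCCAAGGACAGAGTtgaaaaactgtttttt
Set B, TRBJ2-1: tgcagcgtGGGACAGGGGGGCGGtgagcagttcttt
Set C, TRBJ2-7: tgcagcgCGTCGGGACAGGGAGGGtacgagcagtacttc
Set C, TRBJ2-5: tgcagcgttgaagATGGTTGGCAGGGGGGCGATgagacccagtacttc

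The largest clone stood far above every other TRBV29-1 clonotype in set A and was at or near 0 elsewhere. Its CDR3, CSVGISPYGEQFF, is 13 amino acids long, joined to TRBJ2-1, and its TRBD2 hit rested on 5 bases. It was chosen by its share of counts, the highest of any TRBV29-1 clonotype in any library, so its levels are a description and carry no test. It held 13409 counts (3.85% of the library) in Amazo day -5, 17849 (5.88%) in Amazo day +3, 46508 (8.35%) in Rocket day -5 and 16247 (6.26%) in Rocket day -4. Among all clones of all V genes it ranked first in 3 of these libraries and 3rd in Amazo day -5. It made up 76.9% to 91.5% of the TRBV29-1 counts there, and was 77.9 to 220 times as abundant as the next TRBV29-1 clonotype.

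In the other libraries the same sequence held 9 counts in Amazo day -4, 13 in Nebula day -5 and 11 in Nebula day 0. These are shares of 0.00229%, 0.00305% and 0.00426%. It held 0 of 42695 counts in Nebula day -4, which allows a share of up to 0.00703%. The 5 next largest members of set A were at 0 counts in all 4 libraries of sets B and C. Each had at most 229 counts in any library of set A, so these 0 counts cannot be set against those of the largest clone. Whether reads crossed between libraries was not tested.

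Near copies of this clone were almost absent among the assembled clones. MiXCR was run with its default setting, and whether it had merged such copies into the clone was not tested. Among TRBV29-1 clonotypes of the same nucleotide length, none came within 2 bases of it, except for 1 clonotype of 1 count in Nebula day 0. The closest differed by 5 to 8 bases in the other 7 libraries. Its amino acid CDR3 was encoded by 1 nucleotide sequence. The background below is every other TRBV29-1 clonotype apart from that 1 near variant, 5317 entries in the post-infusion libraries.

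**Figure D1:**
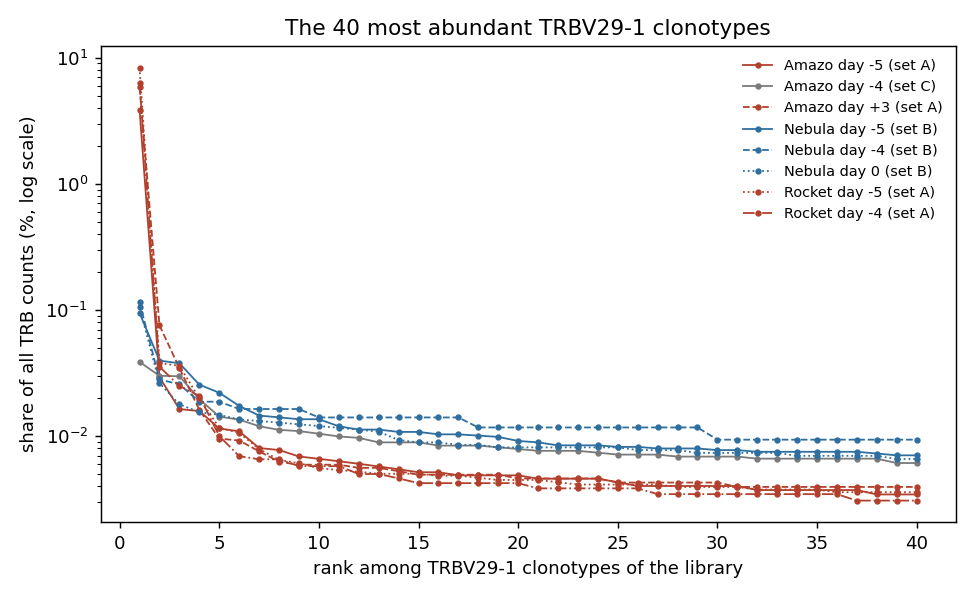
Share of all TRB counts in percent (log scale) against rank for the 40 most abundant TRBV29-1 clonotypes of each post-infusion library, coloured by set. In set A the first rank holds 3.85% to 8.35% and the second at most 0.0754%, whereas in sets B and C no clonotype exceeds 0.115%.

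Apart from its largest clone, TRBV29-1 was a diverse collection of small clonotypes in every post-infusion library. The background comprised 691 clonotypes in Amazo day -5, 792 in Amazo day -4, 508 in Amazo day +3, 886 in Nebula day -5, 577 in Nebula day -4, 871 in Nebula day 0, 322 in Rocket day -5 and 670 in Rocket day -4. Its largest clonotype held 0.0293% to 0.115% of a library, and its 10 largest together held 8.14% to 19.1% of the background counts. The median clonotype had 2 to 12 counts, beside 2 to 13 for other V genes. Singletons were 41.1% of the background in Nebula day -4, the shallowest library, and 8.46% to 16.6% elsewhere.

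The whole gene accounted for 9.12% of counts in Rocket day -5, 7.25% in Rocket day -4, 7.01% in Amazo day +3, 5.01% in Amazo day -5, 2.92% in Nebula day -4, 2.71% in Nebula day -5, 2.70% in Nebula day 0 and 2.34% in Amazo day -4. The 4 libraries of set A thus took the first 4 places. Nebula day -5 and day 0 did not differ beyond counting error (95% Wilson intervals 2.66% to 2.76% and 2.64% to 2.76%). Without the largest clone the order turned, with 0.773% to 1.16% of counts in set A, 2.34% in set C and 2.69% to 2.92% in set B. By counts TRBV29-1 ranked 3rd to 5th among 58 to 61 V genes in set A, but 23rd to 29th without the largest clone, and 11th to 13th in sets B and C.

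Background clonotypes were also a smaller share of all clonotypes in set A. They were 1.86% to 2.04% of all clonotypes in set A and 2.86% to 3.18% in sets B and C, with no overlap. At an equal depth of 42695 counts, 174 to 320 background clonotypes were expected in set A and 503 to 577 in the others. Over all V genes, 9943 to 16221 clonotypes were expected in set A and 16446 to 20233 in the others. The background was 1.75% to 1.99% of these in set A and 2.82% to 3.18% in the others. The clonotype share of 46.6% of the 58 V genes tested likewise did not overlap between these libraries, so TRBV29-1 does not stand out by it. In bulk RNA, fewer cells and less TRB RNA per cell cannot be told apart.

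**Figure D2:**
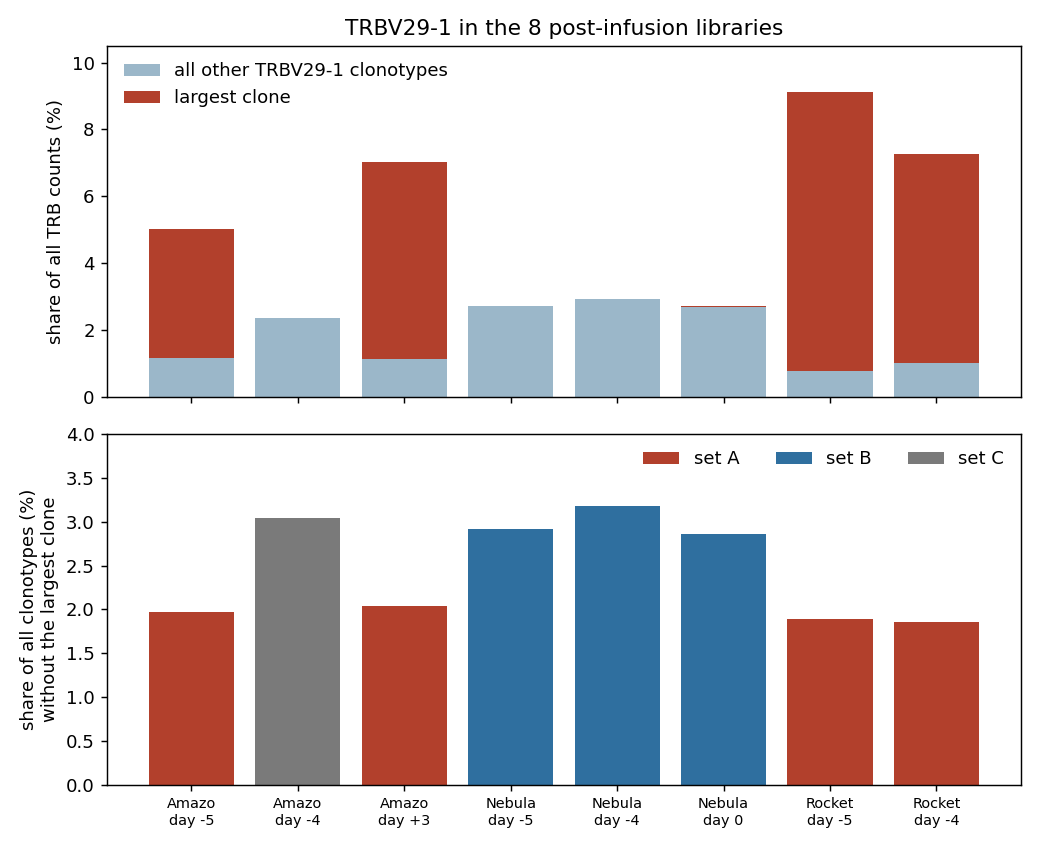
Upper panel, share of all TRB counts in percent for TRBV29-1, split into the largest clone and all other clonotypes. Lower panel, background clonotypes as a percent of all clonotypes, with bars coloured by set, 1.86% to 2.04% in set A and 2.86% to 3.18% elsewhere.

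Across the 8 libraries, the V genes whose level followed TRBV29-1 most closely were TRBV9 (Pearson r = 0.965, Spearman rho = 0.810), TRBV19 (r = 0.961, rho = 0.905) and TRBV5-4 (r = 0.960, rho = 0.833), on log2(CPM + 1), where CPM scales counts to the total of the library. The points share animals and clones within sets, and the values are given as a description. The level of TRBV29-1 here includes its largest clone, which made up 76.9% to 91.5% of its counts in set A. Likeness without that clone was not tested. TRBV9 ranged from 14.8 to 17.0 on this scale and TRBV5-4 from 9.41 to 12.5, each with its 4 highest values in set A.

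The comparison of day -5 with day -4 followed the gene 2 and 3 days after the first infusion. TRBV29-1 held 5.61% ± 3.25 of counts on day -5 and 4.17% ± 2.69 on day -4 (mean ± SD, n = 3). The difference was -2.67 percentage points in Amazo, -1.87 in Rocket and 0.205 in Nebula, and the groups overlapped. The mean difference was -1.44 points, with an SD of 1.48 over the 3 names. The exact two-sided sign-flip permutation test gave p = 0.50. With 0.25 the smallest p that 3 pairs allow, this test could not pass 0.05. Without the Amazo libraries the mean difference was -0.832 points. Fitted over 57 V genes with animal name as block, the log2 fold change of TRBV29-1 was -0.52 ± 0.35 (SE; edgeR quasi-likelihood test, adjusted p = 0.627), and -0.19 without the Amazo libraries (edgeR, adjusted p = 0.794). The fit with all 3 names called 0% of V genes (0 of 57 at an adjusted p below 0.05, and 0 at an unadjusted p below 0.05), and DESeq2 also called 0 (5 unadjusted). Without the Amazo libraries edgeR called 4 of 56 V genes, 2 higher and 2 lower, and without the Nebula libraries 1 of 56, TRBV29-1 not among them.

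Without the largest clone the direction of the difference turned. That clone was chosen by its highest share, which lay in a day -5 library. It held 8.35% in Rocket day -5 and 6.26% in Rocket day -4, and 3.85% and 0.00229% in Amazo. Leaving it out thus takes more from day -5, and the turn is given as a description. The rest of TRBV29-1 held 1.55% ± 1.03 of counts on day -5 and 2.09% ± 0.985 on day -4, and was higher on day -4 under 3 of 3 names (exact sign-flip permutation test, p = 0.25). The difference was 1.18 points in Amazo, where the libraries come from sets A and C, 0.208 in Nebula and 0.224 in Rocket. The mean of 0.539 points dropped to 0.216 without Amazo. The log2 fold change was then 0.40 with all names (edgeR, adjusted p = 0.626) and 0.16 without Amazo (edgeR, adjusted p = 0.171). As a share of clonotypes, the gene held 2.26% ± 0.573 and 2.70% ± 0.726, higher on day -4 in Amazo and Nebula with a difference of -0.0313 points in Rocket (exact sign-flip permutation test, p = 0.50). The mean difference of 0.435 points was 0.114 without Amazo. None of these tests passed 0.05, which the sign-flip tests over 3 pairs could not do.

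At baseline, 2 TRBV29-1 clonotypes were found, of which that in baseline library 1 was out of frame. They held 1 of 73 counts in baseline library 1 (1.37%, 95% Wilson interval 0.242% to 7.36%) and 2 of 70 counts in baseline library 4 (2.86%, 0.787% to 9.83%). Baseline libraries 2 and 3 held 0, with 95% Wilson upper limits of 5.75% and 4.93%. A floor of 3 counts is a share of 4.76% and 4.05% there. All 4 baseline libraries thus lay below the floor of 3 counts, and no difference from baseline could be measured at this depth. The means of day -5 and day -4 were 4.56 and 3.11 points above the baseline mean, and 2.80 and 1.57 points above it without the Rocket library of that day. The planned exact two-sided permutation test gave p = 0.114 for each, and nothing is read from it. Neither baseline clonotype was found in a post-infusion library, and the largest clone could not be assessed at a depth of 63 to 74 counts. The median V alignment score was 247 to 298 per baseline library and 1213 to 1288 after infusion, so kind of library and condition cannot be told apart.

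Single clonotypes were followed between libraries of the same set and name when they had at least 50 counts in either, and a change of 2-fold or more was counted as called, with no test. A clonotype that reached 50 counts only in the first library was picked where it was high, which favours lower values in the second. From Rocket day -5 to day -4, 1 of 6 TRBV29-1 clonotypes was called, beside 35.5% of the 372 clones of all V genes. That clonotype, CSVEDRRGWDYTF (the second TRBJ1-2 clone of set A), went from 65 counts to 0, which is at least 10.1-fold lower against a floor of 3 counts in that library. It was among 2 of the 6 that reached 50 counts only on day -5. The largest clone was 1.33-fold lower. Its log2 ratio of -0.42 compares with medians of -0.51 over the 6 members and -0.52 over all clones followed.

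From Nebula day -5 to day -4, 5 of 11 members were called, 4 of them lower, beside 35.9% of all 365 clones. All 11 reached 50 counts only on day -5, and 5 had 3 counts or fewer in 1 of the libraries. Nebula day -4 held 42695 counts against 426198 in Nebula day -5, so its floor of 3 counts was a share of 0.00703%. Clones of 58 counts or fewer on day -5 (0.0136%) could thus not be called lower. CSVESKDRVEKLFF (the second TRBJ1-4 clone of set B) went from 161 counts (0.0378%) to 4 (0.00937%), a 4.03-fold lower share. From Nebula day -5 to day 0, 5 of 11 members were called, all lower, beside 54.6% of all 377 clones, and 9 of the 11 reached 50 counts only on day -5. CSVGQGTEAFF had 74 counts on day -5 and 7 on day 0, a 6.40-fold lower share. The median log2 ratios of the members, -0.77 and -0.97, lay close to those of all clones, -0.74 and -1.01.

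From Amazo day -5 to day +3, after the second infusion, 2 of 4 members were called, both higher, beside 35.6% of all 233 clones. The first TRBJ1-2 clone of set A went from 102 counts (0.0293%) to 229 (0.0754%), a 2.58-fold higher share, and the largest clone was 1.53-fold higher. The median over the 4 members was 0.84 on the log2 scale, against -0.24 over all clones followed. Amazo day -5 and day -4 were not compared by clonotype, since 516 of 517 clones differed 2-fold or more between them.

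The clonotypes that led the background differed between sets. The first TRBJ1-2 clone of set A was present in all 4 libraries of that set, at 102, 229, 211 and 92 counts, as were the TRBJ2-6 clone (57, 105, 201 and 54) and the TRBJ2-1 clone (55, 28, 111 and 65). The first TRBJ1-4 clone of set B, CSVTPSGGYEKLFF, held 403, 49 and 270 counts in Nebula day -5, -4 and 0, which are shares of 0.0946%, 0.115% and 0.105%. The TRBJ2-7 clone of set C, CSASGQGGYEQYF, held 152 counts in Amazo day -4 and 8 in Amazo day -5. Among the 5 largest background clonotypes of each set, 4 of 15 were detected in any library outside their set, at 1 to 8 counts.

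Background clonotypes were shared mainly within sets. Pairs of libraries of the same set had 25 to 57 of them in common, 4.18% to 9.88% of each list, and pairs of different sets had 0 to 9, at most 1.30% of either list. For other V genes these shares were 4.53% to 10.9% and at most 1.01%. By amino acid sequence, 1 of 4646 distinct background CDR3s occurred in all 3 sets. This was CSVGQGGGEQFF, with 116 counts in 5 libraries, 4 nucleotide sequences and TRBJ2-1, shown above in its set B form. By the percent of its CDR3s found in all sets, TRBV29-1 ranked 20th of 44 V genes.

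The start of the CDR3 followed the V end. This is a description, since V gene was the rule by which members were selected. The untrimmed V end was 13 bases long, tgcagcgttgaag, in 574 of 614 untrimmed clonotypes. Its whole codons read C, S, V and E. In productive clonotypes, which are in frame and have no stop codon, the background began with CSV in 78.7% ± 1.24 (SD, n = 8 libraries), against 0.120% ± 0.0317 for other V genes. CSA followed with 11.03% ± 1.10 and CSG with 3.86% ± 0.986. Other V genes began with CA in 94.3% ± 0.750, a start found in 0% of the background in 7 libraries.

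The residue after CSV varied with trimming. CSVE led with 23.6% ± 1.49, followed by CSVG with 13.1% ± 1.83, CSVD with 8.02% ± 1.39, CSVV with 7.53% ± 1.04, CSVA with 6.0% ± 0.704 and CSVR with 5.12% ± 1.21. The start CSVG is that of the largest clone, which kept 10 bases of V. Clonotypes that kept 13 or more V bases were 13.2% ± 1.22 of the background, and 92.4% ± 4.05 of these began with CSVE. Those with 10 to 12 bases were 39.0% ± 2.18, of which 27.1% ± 2.34 began with CSVE. With 7 to 9 bases (42.9% ± 2.71 of clonotypes), 64.0% ± 2.57 still began with CSV, and with 6 or fewer (4.84% ± 0.777) it was 1.85% ± 3.44. Of the 15 clonotypes that are the 5 largest of the background in each set, 6 kept 13 V bases and 12 began with CSV.

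The CDR3s of the background were short. Their mean length was 13.1 amino acids in Amazo day -5, 13.1 in Amazo day -4, 13.2 in Amazo day +3, 13.3 in Nebula day -5, 13.2 in Nebula day -4, 13.1 in Nebula day 0, 12.9 in Rocket day -5 and 13.1 in Rocket day -4. Other V genes had 14.4 to 14.6 in the same libraries, so no library overlapped. The difference was -1.40 ± 0.140 amino acids over the 3 animal names (exact two-sided sign-flip permutation test, p = 0.25, the smallest possible) and was negative in 8 of 8 libraries. A difference of 1 sign in all 8 libraries was found for 68.2% of 44 V genes, but the size for TRBV29-1 was the lowest of the 44 (-1.38 as a mean of 8 libraries), followed by TRBV30 at -0.74.

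The shorter length lay mainly in the V part. In nucleotides, the background CDR3 differed from that of other V genes by -4.15 ± 0.448 bases (SD, n = 8 libraries). Bases aligned to V differed by -3.43 ± 0.146, bases between V and J by -0.448 ± 0.244 and bases aligned to J by -0.280 ± 0.146. The most frequent length was 13 amino acids (28.8% ± 2.16 of background clonotypes), the length of the largest clone, whereas other V genes peaked at 15 (24.3% ± 0.365) and 14 (24.0% ± 0.527). Lengths of 12 or 11 amino acids took 20.3% ± 1.81 and 9.52% ± 1.87 of the background, against 6.89% ± 0.383 and 2.89% ± 0.156.

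**Figure D3:**
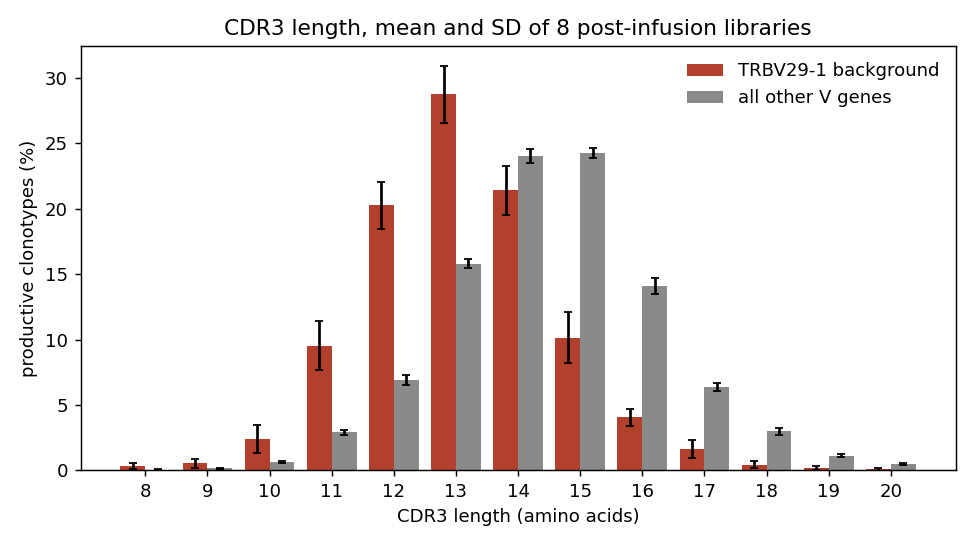
Percent of productive clonotypes at each CDR3 length in amino acids, for the TRBV29-1 background and all other V genes. Bars are means and error bars the SD of 8 post-infusion libraries; the background peaks at 13 amino acids (28.8%) and the other V genes at 15 (24.3%).

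J pairing differed from other V genes at 7 of 13 TRBJ segments, where a call needed the same sign in all 8 libraries and a mean difference of at least 1 percentage point. This rule called 24.1% of all 572 V and J combinations. TRBJ1-2 was higher, with 11.6% ± 1.25 of the background against 7.60% ± 0.663 of other V genes (mean ± SD, n = 8). TRBJ2-7 was the commonest segment with 14.9% ± 0.948 against 11.6% ± 0.266, and TRBJ1-1 had 9.03% ± 1.46 against 6.08% ± 0.857. TRBJ1-4, among the 3 commonest segments with 10.8% ± 2.46 against 8.84% ± 0.897, was higher in 7 of 8 libraries and was not called.

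The 4 segments called lower were TRBJ2-2 (3.30% ± 0.785 against 8.11% ± 0.391), TRBJ2-3 (6.89% ± 1.39 against 9.96% ± 1.04), TRBJ2-4 (6.21% ± 0.985 against 9.06% ± 0.542) and TRBJ1-6 (1.29% ± 0.772 against 3.41% ± 0.307). TRBJ2-1, the segment of the largest clone, held 10.2% ± 2.92 of the background and 11.1% ± 1.89 of other V genes. It was lower in 6 of 8 libraries and was not called.

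**Figure D4:**
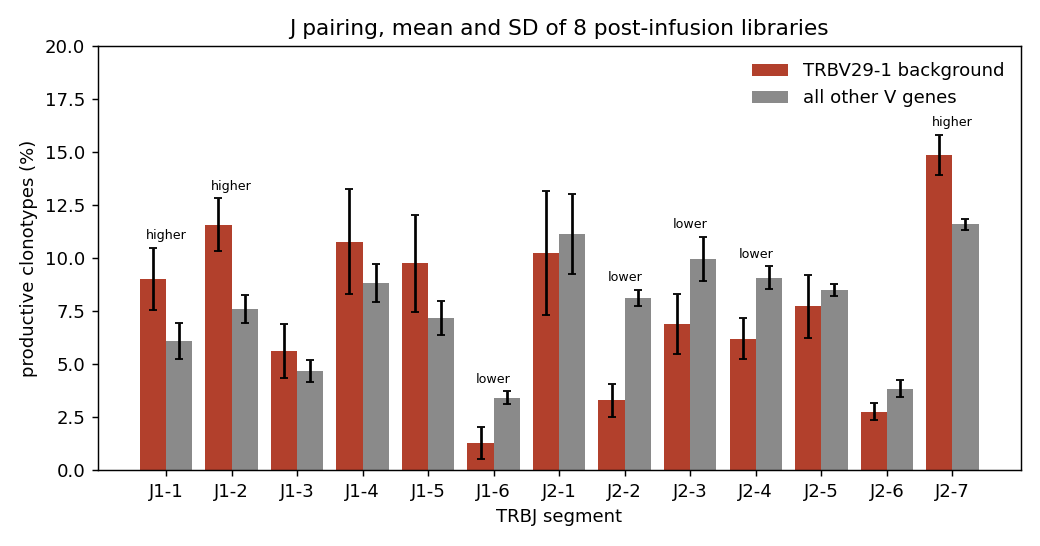
Percent of productive clonotypes joined to each TRBJ segment, for the TRBV29-1 background and all other V genes (mean and SD of 8 post-infusion libraries). The words higher and lower stand over the 7 segments called, such as TRBJ1-2 (11.6% against 7.60%) and TRBJ2-2 (3.30% against 8.11%).

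Summed over the cluster, TRBJ2 segments were used by 45.2% to 57.2% of the background and by 58.2% to 65.4% of other V genes. The difference was -9.98 ± 1.71 percentage points over the 3 names (exact sign-flip permutation test, p = 0.25), lower in 8 of 8 libraries. Of the 44 V genes, 54.5% had the same sign in all 8 libraries, and TRBV29-1 had the second lowest value after TRBV28 (-10.2 and -11.4 points, means of 8 libraries). The level moved with the set, at 53.7% to 57.2% in set A, 53.0% in set C and 45.2% to 47.5% in set B, and the same order held for other V genes.

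D pairing was read from the first D hit, which often rested on few bases, and 17.2% ± 2.81 of TRBJ2 background clonotypes (SD, n = 8) had hits to both D segments. Among TRBJ2 clonotypes with a D hit, TRBD2 was the first hit in 28.5% to 37.5% of the background and 41.3% to 46.2% of other V genes. The difference was -9.86 ± 2.36 points over the 3 names (exact sign-flip permutation test, p = 0.25), lower in 8 of 8 libraries. A common sign was found for 47.7% of the 44 V genes, among which TRBV29-1 ranked 7th from the lowest. TRBD2 was also the first hit in 10.2% ± 2.41 of TRBJ1 background clonotypes, against 9.13% ± 0.351 for other V genes, although it lies after the TRBJ1 cluster.

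Clonotypes with no D hit were 21.6% to 29.9% of the background and 23.9% to 26.7% of other V genes. The sign was mixed, higher in 3 and lower in 5 libraries, with a difference of 0.302 ± 0.398 points over the names (exact sign-flip permutation test, p = 0.50). Without the Amazo day -4 library it turned to -0.330. A common sign in all 8 libraries occurred for 22.7% of V genes, TRBV29-1 not among them.

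Non-productive clonotypes, out of frame or with a stop codon, were 1.39% to 7.76% of the background and 5.51% to 11.2% of other V genes. The difference was -3.06 ± 0.668 points over the names (exact sign-flip permutation test, p = 0.25), lower in 8 of 8 libraries. A common sign was found for 54.5% of the 44 V genes, among which TRBV29-1 ranked 13th from the lowest. Non-productive members numbered 8 in Nebula day -4 and 25 to 43 elsewhere. Their median count was lower than that of productive members in each of the 8 libraries, for example 5 against 11 in Amazo day -4.

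**Figure D5:**
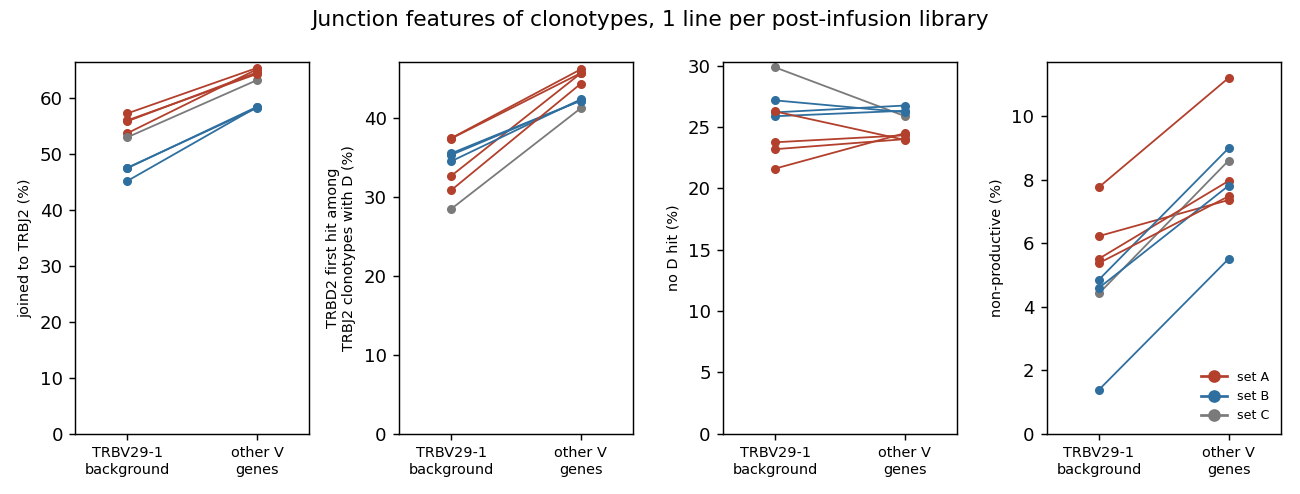
Percent of clonotypes with each junction feature in the TRBV29-1 background and in all other V genes, 1 line per post-infusion library, coloured by set. TRBJ2 use, TRBD2 first hits and non-productive clonotypes are lower in the background in 8 of 8 libraries, and the no D hit share is lower in 5 of 8.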

How the data were processed

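RNA of blood mononuclear cells was converted to cDNA by template switching, and the TRB VDJ region was amplified and sequenced on a MiSeq. Per the labels, the authors cleaned reads with Trimmomatic, and MiXCR assembled the clones from known rhesus TRB segments (versions not given in the sources used here). Each deposited table gives a whole-number count per clone and a clone fraction, which is that count over the sum of all counts in its table. The study's methods describe barcode collapsing and a clone threshold, but the deposited post-infusion tables hold far smaller clones and no barcode column. Intervals (95% Wilson), floors (3 counts) and richness therefore cover counting error only. No coordinates of gene segments were used.

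V, D and J genes were the first hits. The largest clone was the TRBV29-1 clonotype with the highest share in any post-infusion library, and clonotypes within 2 bases of it were left out of the background. Libraries were joined into sets at a Morisita-Horn index of at least 0.5 over the other V genes. Named were the 5 largest other clonotypes of each set, amino acid CDR3s found in every set, the clone changed most between libraries among those of at least 50 counts, J segments called or among the commonest 3, and the 3 V genes most like TRBV29-1. Members, lists and rules were chosen with earlier results of these data known.

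Counts per V gene (at least 10 in at least 3 libraries) were tested with edgeR 4.0.16 in R 4.3.3 (TMM, animal name as block, Benjamini-Hochberg) and, as an alternative, DESeq2 1.42.0. The animal names in the titles were taken as pairs. The Amazo pair did not share a repertoire, and deviations of V gene levels from the group means correlated within names with r = 0.932 for Rocket, r = 0.857 for Nebula and r = -0.107 for Amazo. Features were compared with V genes of at least 30 productive clonotypes in each of the 8 libraries, as means per animal name. Single values were tested by exact permutation in Python 3.11.15 (numpy 2.4.6, pandas 2.3.3, scipy 1.17.1, matplotlib 3.10.9). On simulated data, the edgeR test recovered 22.8% of V genes changed 2-fold and 99.4% of those changed 8-fold among 57 V genes, with 0.593% of unchanged V genes called. The simulation held no differences between animals or sets and changed only abundant V genes, so these rates need not hold for the real libraries.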

Additional observations from a re-analysis of the deposited data

How the results depend on the processing

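Of 108 alternative values, 96 kept their direction and their side of 0.05, or stayed within 1.5 times the count. Apart from those over 8 libraries, the exact permutation tests could not pass 0.05. For them only the direction could change. Day -4 against day -5 turned direction with the largest clone: the log2 fold change of TRBV29-1 was 0.40 without that clone and 0.30 with each clonotype counted once (edgeR), and the share of counts differed by 0.539 points without it. Without both that clone and the Amazo libraries, these were 0.16 and 0.216 points. That clone was chosen by its share in a day -5 library, so turns that rest on leaving it out are a description. With no replicate block the log2 fold change was -0.54 (edgeR, adjusted p = 0.981), and the unpaired exact permutation p was 0.60 for counts and 0.40 for clonotypes. None of these 3 calls changed with the block. The tests of the shares of counts and of clonotypes could not pass 0.05 either way with 3 libraries per day. Leaving out 1 name, the log2 fold change ranged from -0.79 to -0.19, the share of counts from -2.27 to -0.832 points (lowest without Nebula, highest without Amazo) and the share of clonotypes from 0.114 to 0.668 points (without Amazo and without Rocket). The difference in no D hit share turned to -3.25 points weighted by counts, -0.479 with at least 2 counts and -0.330 without Amazo day -4. Leaving out Amazo day -4, Nebula day -4, or the largest clone together with Amazo was chosen after seeing the data.

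Each of the 8 libraries as 1 value gave exact sign-flip permutation p = 0.00781 for CDR3 length (-1.38 amino acids), TRBJ2 share (-10.2 points), TRBD2 share (-9.73 points) and non-productive share (-3.10 points), where libraries of 1 set share clones and are not independent. Leaving out 1 name, these ranged from -1.47 to -1.33 amino acids, -10.9 to -9.17, -11.2 to -9.03 and -3.30 to -2.68 points, and the no D hit share from 0.0786 to 0.461. J segments called numbered 6 with at least 2 counts (without TRBJ2-4) and 10 with 1 value per set (with TRBJ1-4, TRBJ1-5 and TRBJ2-6 added). With 3 names the sign-flip test could not pass 0.05, and at baseline depth shares under 4.05% could not be measured.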
